A study of Homo sapiens with 3 samples.

Results

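The 9 genes FLNA, COPA, CYFIP2, COG3, BLCAP, NEIL1, AZIN1, CDK13 and TMEM63B encode transcripts with known recoding sites, positions at which editing of an adenosine changes an amino acid of the protein. They were taken by symbol from the 57268 genes of the count table, and each symbol matched 1 row. RNA came from HEK293T cells, a human embryonic kidney line, in 3 libraries with 1 library per group: cells overexpressing ADAR2 together with SRSF9 (ADAR2+SRSF9), cells overexpressing ADAR2 alone (ADAR2), and cells with no overexpression, labelled WT (control). The labels name no empty-vector control and give no delivery, dose or duration of the overexpression. The study asked how SRSF9, a serine/arginine-rich splicing factor, acts on editing of ADAR2-specific sites. The table holds reads per gene. It gives transcript levels only, and no editing level was measured here.

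ADAR enzymes deaminate adenosine to inosine in double-stranded RNA, and inosine is read as guanosine during translation. At most recoding sites the double strand forms when the exon folds back on a nearby stretch, often in the adjoining intron, so editing precedes or accompanies splicing. Outside the brain, where ADAR2 recodes glutamate receptors, most recoding sites lie in broadly expressed transcripts such as these. The sites of FLNA, COPA, CYFIP2 and COG3 are known mainly as ADAR2 substrates, and those of AZIN1 and NEIL1 mainly as ADAR1 substrates.

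The codons are shown because they are what an editing enzyme acts on in these transcripts. Each line gives 27 bases of coding sequence from GENCODE release 29, 5′ to 3′, in DNA letters. Capitals mark the recoded codon. The known changes are glutamine to arginine in FLNA, CDK13 and TMEM63B, isoleucine to valine in COPA and COG3, lysine to glutamate in CYFIP2 and lysine to arginine in NEIL1. BLCAP has 3 known changes, Y2C, Q5R and K15R, counted from the initiator methionine, and its first line starts at the start codon. AZIN1, whose known change is serine to glycine, is named only. Which codons are recoded is background knowledge and was not read from these libraries.
FLNA: gtttctagccttCAGgagtcagggcta
COPA: cgcgtttgggatATTtctggtctgagg
CYFIP2: gccagatacattAAGaccagtgctcac
COG3: accattaaggaaATTtccctggacctc
BLCAP, start of the coding sequence: atgTATtgcctcCAGtggctgctgccc
BLCAP, lysine codon: ctcctcatccccAAGcccctcaacccc
NEIL1: cagttggggggcAAAggctacgggtca
CDK13: gcaggagggcggCAGaagcggcgtcgc
TMEM63B: gcctacgagttcCAGtttggcgcagcc

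In each of the 10 codons of these 8 genes, exactly 1 A-to-G change gives the known amino acid change. None of the 10 adenosines follows a guanosine, whereas 28.6% of the 6410 coding adenosines of the same transcripts do. A guanosine follows 5 of the 10, against 32.3% of those adenosines. A guanosine before the adenosine is known to disfavour ADAR editing, and these sites are known targets, so the shares describe the sites and are no test. The position in the exon differs between genes. In FLNA the edited adenosine is followed by 1 more base before the exon ends, and in COPA by 6. In NEIL1 it is preceded by 6 bases of its exon and in TMEM63B by 19. The CDK13 site lies well inside exon 1, with 903 bases of the exon after it.

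Libraries held 97875935 reads in ADAR2+SRSF9, 132887974 in ADAR2 and 152878282 in the control. Levels are given as CPM, counts per 1000000 reads of the TMM-scaled library size. ADARB1, the gene of ADAR2, stood at 13647 CPM in ADAR2+SRSF9, 16100 CPM in ADAR2 and 114 CPM in the control, and SRSF9 at 18288, 369 and 372 CPM in the same order. ADARB1 was thus lower in ADAR2+SRSF9 than in ADAR2, at 0.848 times. ADAR, the gene of ADAR1, stood at 224, 231 and 235 CPM. All 8 HEK293 marker genes checked were expressed, with a summed level of 731, 773 and 763 CPM. Of 6 fibroblast markers only COL1A1 reached a mean of 1 CPM, and THY1 was at 0 reads. The 8 blood markers summed to 1346 CPM in ADAR2+SRSF9, against 21.3 CPM in ADAR2 and 19.1 CPM in the control, through the globin genes HBB (383, 1.15 and 1.44 CPM) and HBD (946, 3.55 and 3.69 CPM). PTPRC, the pan-leukocyte marker, was at 0, 5 and 6 reads. With mitochondrial genes, HBB, HBD and the overexpressed genes left out of the library sizes, no member's log2 ratio moved by more than 0.018.

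All 9 transcripts were well expressed in each library, with 2860 to 41371 reads, and all passed the minimum of a mean of 1 CPM. Together they held 82489 reads in ADAR2+SRSF9, 118255 in ADAR2 and 136868 in the control, a summed level of 860, 881 and 886 CPM.

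**Figure D1:**
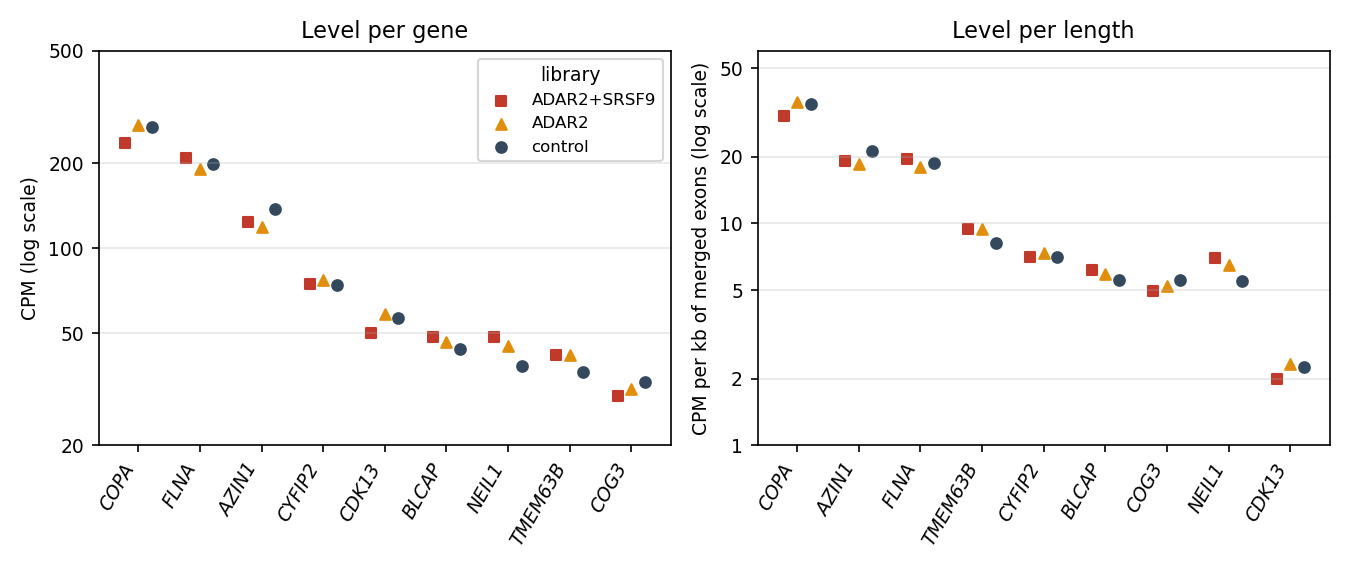
Levels of the 9 transcripts in the ADAR2+SRSF9, ADAR2 and control libraries, as CPM (left) and as CPM per kilobase of merged exons (right), both on log axes. Each point is 1 library, and genes run from the highest to the lowest control level. The members span from 29.8 to 272 CPM, while the 3 points of a gene lie close together.

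Levels of different genes can be compared only per length. On the scale of CPM per kilobase of merged exons, COPA led at 30.6 in ADAR2+SRSF9, 35.2 in ADAR2 and 34.7 in the control. AZIN1 (19.2, 18.6 and 21.3) and FLNA (19.6, 17.9 and 18.8) followed, and their order differs between the libraries. TMEM63B (9.48, 9.42 and 8.20) and CYFIP2 (7.07, 7.36 and 7.05) came next. BLCAP, COG3 and NEIL1 were hardly apart in the control, at 5.57, 5.56 and 5.50. CDK13 was lowest, at 2.00, 2.33 and 2.25. Against the length of the longest annotated transcript the first 3 kept their places in the control (49.0 for COPA, 28.9 for AZIN1 and 23.4 for FLNA) and CDK13 stayed lowest at 5.56. In the middle CYFIP2 (11.6) then stood above TMEM63B (10.9), BLCAP (10.7) and NEIL1 (10.2), and COG3 stood below them at 7.44. The middle of the order therefore depends on the length used.

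Ratios below compare 2 libraries. Their 95% intervals are exact (Clopper-Pearson) and reflect counting error alone. Each group is a single library, so no ratio has a replicate check or a p-value. A gene was called apart at 1.2-fold or more with an interval that excludes 1. Among the 16072 genes with a mean of 1 CPM or more, the interval alone excluded 1 for 50.5% in ADAR2+SRSF9 against ADAR2, 63.9% in ADAR2 against control and 68.8% in ADAR2+SRSF9 against control. An interval that excludes 1 is thus usual at this depth.

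The comparison of ADAR2+SRSF9 with ADAR2 addresses the addition of SRSF9. None of the 9 members was called apart at 1.2-fold, where 13.9% of all genes were, and 4.31% of genes with a mean of 10 CPM or more, as all members have. Their median log2 ratio was 0.01, as was that of all 16072 genes. CDK13 and COPA were lowest in it, and FLNA and NEIL1 highest. For CDK13, COPA and COG3, the ADAR2+SRSF9 library stood below both of the others. At 1.1-fold, CDK13 and COPA were the 2 members called, both lower, where 27.3% of all genes were called by that rule.

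The next contrast, ADAR2 against control, asks what went with ADAR2 overexpression. Again none of the 9 was called at 1.2-fold, where 13.9% of all genes were, and 7.61% of genes at 10 CPM or more. The members' median log2 ratio was 0.05, and that of all genes -0.00. NEIL1 and TMEM63B were highest in ADAR2 and AZIN1 lowest. At 1.1-fold these 3 were called, where 40.8% of all genes were.

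In ADAR2+SRSF9 against control NEIL1 alone was called at 1.2-fold, where 26.5% of all genes were, and 18.5% of genes at 10 CPM or more. At 1.1-fold 7 members were called, where 50.7% of all genes were. The median was 0.01 for the members and -0.01 for all genes. Each library enters 2 of the 3 comparisons, so the sets of ratios are not independent.

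**Figure D2:**
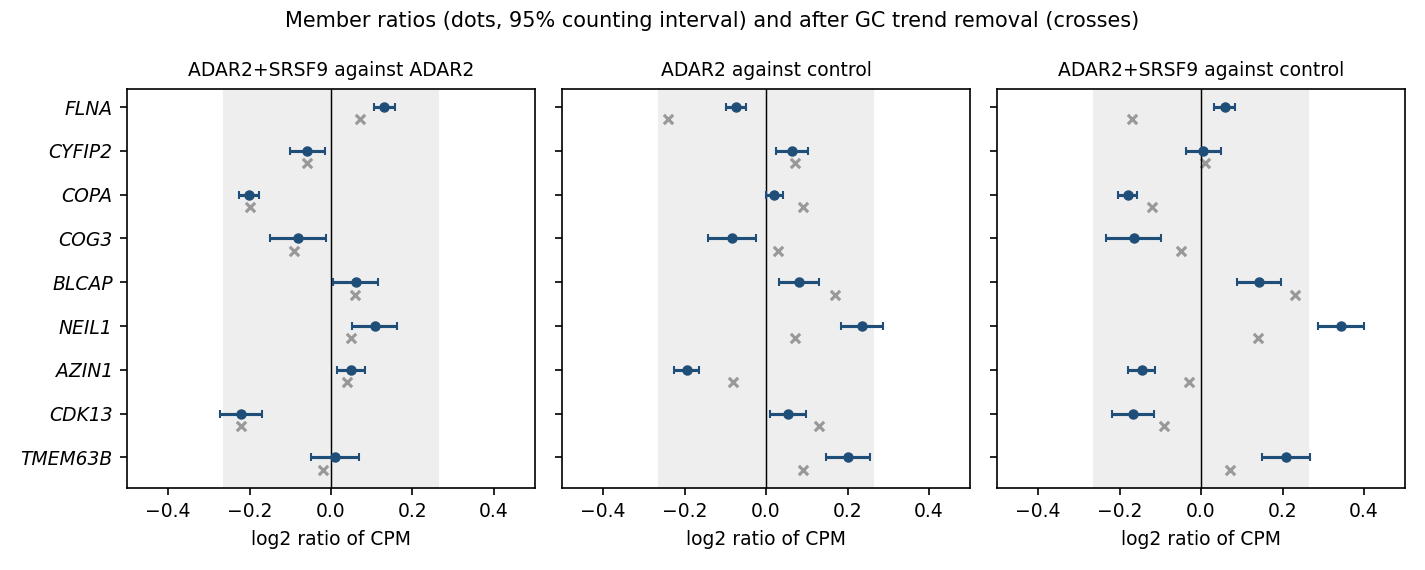
Log2 ratios of the 9 transcripts in the 3 comparisons. Dots are ratios of CPM with their 95% counting intervals, crosses the ratios after removal of the trend with GC content, and the grey band marks ratios under 1.2-fold. NEIL1 in ADAR2+SRSF9 against control (0.34) is the only dot outside the band.

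FLNA encodes filamin A, which crosslinks actin filaments and anchors membrane proteins to them. It had 19903 reads in ADAR2+SRSF9, 25448 in ADAR2 and 30817 in the control, or 208, 190 and 199 CPM. The ADAR2 library was the lowest, and all 3 lie within a narrow range. The ratio was 1.095 in ADAR2+SRSF9 against ADAR2 (1.075 to 1.116), and in ADAR2 against control the log2 ratio was -0.07 (interval of the ratio 0.935 to 0.966). Against the control, FLNA was the member furthest below the trend of log2 ratio with GC content: its transcript has 62.2% GC, the trend for ADAR2 against control stood at 0.17 there, and FLNA at -0.07. FLNC, which encodes the muscle filamin, had log2 ratios of 0.05 in ADAR2+SRSF9 against ADAR2 and 0.09 in ADAR2 against control, and was not called.

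CYFIP2 encodes a subunit of the WAVE regulatory complex, which activates actin branching through Arp2/3, and binds the fragile X protein FMRP. Its level was the steadiest among the members against the control: 74.3 CPM in ADAR2+SRSF9, 77.3 CPM in ADAR2 and 74.0 CPM in the control, from 7120, 10378 and 11429 reads. The ratio of ADAR2+SRSF9 to control was 1.004 (0.975 to 1.034). Of the 8 WAVE complex genes listed beside it, 0 were called in ADAR2+SRSF9 against ADAR2 (median -0.05, lowest ABI2 at -0.13). NCKAP1, which pairs with CYFIP proteins in the complex, was called lower in ADAR2 against control (log2 ratio -0.29) and in ADAR2+SRSF9 against control (-0.35), where ABI2, the Abl interactor subunit, was also called lower (-0.30). Of all genes, 13.9% were called in ADAR2+SRSF9 against ADAR2, 13.9% in ADAR2 against control and 26.5% in ADAR2+SRSF9 against control. CYFIP1, the close relative of CYFIP2, stood at 96.7, 98.6 and 93.9 CPM.

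COPA encodes the alpha subunit of coatomer, the COPI coat that returns proteins from the Golgi to the endoplasmic reticulum. It had 22653 reads in ADAR2+SRSF9, 36464 in ADAR2 and 41371 in the control, or 236, 272 and 268 CPM. The ADAR2+SRSF9 library was the low one. Its ratio was 0.870 to ADAR2 (0.856 to 0.885) and 0.882 to the control (0.868 to 0.897), and that of ADAR2 to control was 1.01, with an interval that ends at 1.029. Among all genes, low-level ones included, 21.6% lay at least as far from 1 as COPA in ADAR2+SRSF9 against ADAR2. That share was not computed for genes at 10 CPM or more. Of 8 other coatomer genes, 7 were expressed and 0 were called in any comparison. The rule called 13.9% of all genes in ADAR2+SRSF9 against ADAR2, 13.9% in ADAR2 against control and 26.5% in ADAR2+SRSF9 against control. Log2 ratios of the 7 coatomer genes ran from -0.12 (COPB2, a beta-prime subunit) to 0.05 (COPE, the epsilon subunit) in ADAR2+SRSF9 against ADAR2. COPA thus lay below all 7. Against the control they ran from -0.26 (ARCN1, the delta subunit) to 0.25 (COPE) in ADAR2+SRSF9.

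COG3 encodes a subunit of the conserved oligomeric Golgi complex, which tethers vesicles within the Golgi. It had 2860, 4237 and 5169 reads in ADAR2+SRSF9, ADAR2 and the control, or 29.8, 31.6 and 33.5 CPM. The ratio was 0.945 in ADAR2+SRSF9 against ADAR2 (0.901 to 0.991), 0.943 in ADAR2 against control (0.905 to 0.983) and 0.892 in ADAR2+SRSF9 against control (0.852 to 0.934). Its transcript is the least GC-rich of the 9 at 42.0%, and with the GC trend removed the log2 ratio of ADAR2 against control turned to 0.03. The 7 other COG genes were all expressed. COG5 alone was called, lower in ADAR2 against control (log2 ratio -0.27), where 13.9% of all genes were called. Between ADAR2+SRSF9 and ADAR2 they ran from -0.10 (COG6) to 0.08 (COG8).

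**Figure D3:**
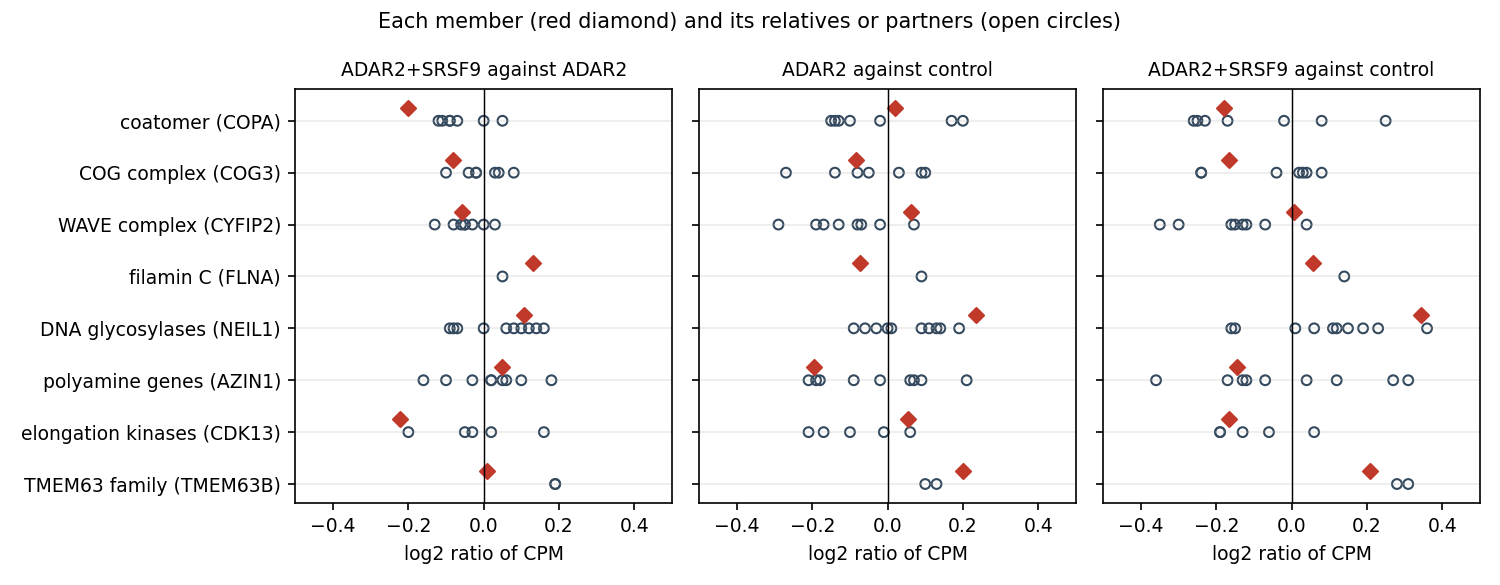
Log2 ratios of 8 members (red diamonds) and of the expressed genes of the same complex, family or pathway (open circles), in the 3 comparisons. In ADAR2+SRSF9 against ADAR2, COPA (-0.20) and CDK13 (-0.22) lie to the left of every partner drawn in their rows. CCNK (-0.20) lies close to CDK13, and their counting intervals overlap.

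NEIL1 encodes a DNA glycosylase that starts base excision repair of oxidised bases, and its recoding is known to alter which lesions the enzyme removes. It had 4645, 6037 and 5897 reads in ADAR2+SRSF9, ADAR2 and the control, or 48.5, 45.0 and 38.2 CPM. Both overexpressing libraries stood above the control. The ratio was 1.27 in ADAR2+SRSF9 against control (1.221 to 1.319), 1.18 in ADAR2 against control (1.136 to 1.221) and 1.08 in ADAR2+SRSF9 against ADAR2 (1.037 to 1.120). Among all genes, low-level ones included, 16.5% were at least as far from 1 in ADAR2+SRSF9 against control. The transcript is GC-rich (61.3%), and with the GC trend removed that log2 ratio was 0.14 in place of 0.34, no longer 1.2-fold. In the reference annotation NEIL1 shares 1831 exon bases with MAN2C1, a mannosidase gene on the opposite strand. MAN2C1 stood at 222 CPM in ADAR2+SRSF9, 198 CPM in ADAR2 and 176 CPM in the control, and its ratio to the control was also 1.27 in ADAR2+SRSF9 (1.24 to 1.29) and 1.13 in ADAR2 (1.11 to 1.15). The libraries were directional, but whether counting used the strand is not stated. Whether reads of the 2 genes were separated where they overlap is therefore not known. All 10 other DNA glycosylase genes listed were expressed. NTHL1, which removes oxidised pyrimidines, was the 1 called, higher in ADAR2+SRSF9 against control (log2 ratio 0.36), where 26.5% of all genes were called. NEIL2 and NEIL3 were at 0.06 and -0.15 there.

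AZIN1 encodes antizyme inhibitor, an inactive relative of ornithine decarboxylase that frees the active enzyme from antizyme and so favours polyamine synthesis. It had 11844, 16025 and 21108 reads in ADAR2+SRSF9, ADAR2 and the control, or 124, 119 and 137 CPM. Both overexpressing libraries were below the control, with a ratio of 0.904 for ADAR2+SRSF9 (0.884 to 0.925) and 0.874 for ADAR2 (0.856 to 0.892). Between ADAR2+SRSF9 and ADAR2 the ratio was 1.04 (1.011 to 1.060). The transcript has 42.3% GC, and with the trend removed the log2 ratio of ADAR2 against control was -0.08 in place of -0.19. Of 9 polyamine and antizyme genes 0 were called in ADAR2+SRSF9 against ADAR2 or in ADAR2 against control, beside 13.9% of all genes in each. Called higher in ADAR2+SRSF9 against control were SRM, spermidine synthase (log2 ratio 0.31), and AZIN2, the other antizyme inhibitor, listed under its older symbol ADC (0.27). SAT1, which acetylates spermidine and spermine for export and breakdown (-0.36), was called lower. Of all genes, 26.5% were called in that comparison. ODC1, ornithine decarboxylase, stood at 167, 160 and 153 CPM, and OAZ1, the main antizyme, at 480, 489 and 465 CPM.

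CDK13 encodes a cyclin K-dependent kinase that phosphorylates the tail of RNA polymerase II and acts in elongation and RNA processing. It had 4810, 7849 and 8705 reads in ADAR2+SRSF9, ADAR2 and the control, or 50.2, 58.5 and 56.3 CPM. ADAR2+SRSF9 was the low library. Its ratio was 0.858 to ADAR2 (0.828 to 0.890), with 19.0% of all genes, low-level ones included, at least as far from 1. To the control it was 0.890 (0.859 to 0.922). The ratio of ADAR2 to control was 1.04 (1.006 to 1.070). With plain library totals in place of TMM scaling, CDK13 passed 1.2-fold in ADAR2+SRSF9 against ADAR2, at a log2 ratio of -0.265. CCNK, the cyclin K gene, had a similar ratio, 0.871 (0.843 to 0.900), while CDK12, the other kinase that pairs with cyclin K, was at 0.968 (0.941 to 0.995). CDK9, the P-TEFb kinase, was higher in ADAR2+SRSF9 than in ADAR2 (log2 ratio 0.16), and its cyclins CCNT1 and CCNT2 were at -0.03 and 0.02. None of these 5 was called in any comparison. The rule called 13.9% of all genes in ADAR2+SRSF9 against ADAR2, 13.9% in ADAR2 against control and 26.5% in ADAR2+SRSF9 against control. The antisense gene AC072061.1, which shares 110 exon bases with CDK13 in the annotation, had 235 reads in ADAR2+SRSF9, 131 in ADAR2 and 139 in the control, a ratio of 2.51 to ADAR2 (2.02 to 3.14). These reads are few beside those of CDK13.

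BLCAP encodes a small membrane protein first described in bladder cancer. It had 4634, 6222 and 6768 reads in ADAR2+SRSF9, ADAR2 and the control, or 48.3, 46.3 and 43.8 CPM. The ratio was 1.04 in ADAR2+SRSF9 against ADAR2 (1.004 to 1.084), 1.06 in ADAR2 against control (1.022 to 1.095) and 1.103 in ADAR2+SRSF9 against control (1.063 to 1.146). Against the control, BLCAP was the member furthest above the GC trend: after its removal the log2 ratio of ADAR2+SRSF9 against control was 0.23 in place of 0.14. NNAT, an imprinted gene that lies within BLCAP on the opposite strand, had 77, 64 and 88 reads, few beside those of BLCAP.

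TMEM63B encodes a mechanosensitive ion channel of the OSCA/TMEM63 family. It had 4020, 5595 and 5604 reads in ADAR2+SRSF9, ADAR2 and the control, or 41.9, 41.7 and 36.3 CPM. The overexpressing libraries were level with each other, at a ratio of 1.01 (0.966 to 1.048), and above the control, at 1.16 for ADAR2+SRSF9 (1.110 to 1.204) and 1.15 for ADAR2 (1.107 to 1.192). Its relatives TMEM63A and TMEM63C were both called higher in ADAR2+SRSF9 against control (log2 ratios 0.28 and 0.31), where 26.5% of all genes were called. With the GC trend removed TMEM63B was at 0.07 there, in place of 0.21.

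Ratios to the control ran with GC content across all genes. Over 15603 genes, the Spearman rank correlation of GC content with log2 ratio was 0.61 in ADAR2 against control, 0.58 in ADAR2+SRSF9 against control and 0.17 in ADAR2+SRSF9 against ADAR2. Genes within a library are not independent replicates. NEIL1 and TMEM63B, 2 of the 3 GC-rich members, were highest against the control, and FLNA, the most GC-rich, was not. COG3 and AZIN1, the least GC-rich, were below the control in both overexpressing libraries, while BLCAP, next to them at 44.1% GC, was above it in both. With the trend removed the members ran from -0.24 (FLNA) to 0.17 (BLCAP) in ADAR2 against control and from -0.17 (FLNA) to 0.23 (BLCAP) in ADAR2+SRSF9 against control, and none was 1.2-fold apart. In ADAR2+SRSF9 against ADAR2 the trend was shallow. With it removed CDK13 and COPA kept their log2 ratios of -0.22 and -0.20, while those of FLNA and NEIL1 were 0.07 and 0.05 in place of 0.13 and 0.11.

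**Figure D4:**
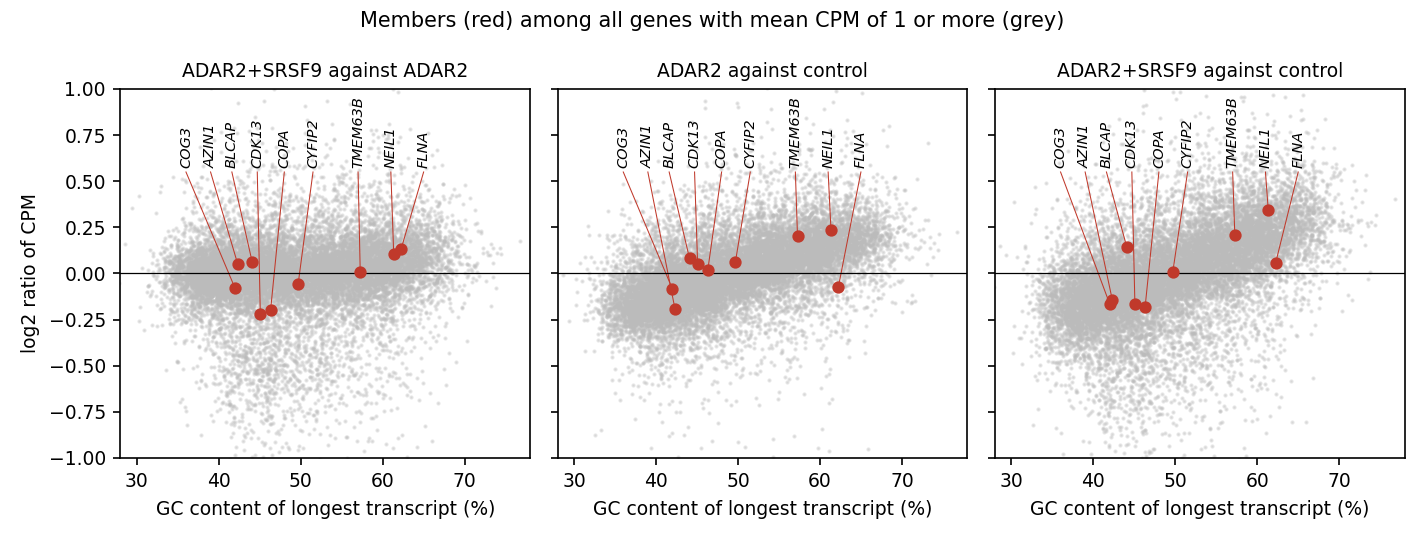
Log2 ratio of CPM against the GC content of the longest transcript, for the 9 members (red) and all genes with a mean of 1 CPM or more (grey), in the 3 comparisons. Genes beyond a log2 ratio of 1 in either direction are not drawn. In the 2 comparisons with the control the grey cloud slopes upward. In both, FLNA lies furthest below the trend, which is not drawn, and BLCAP furthest above it. NEIL1, TMEM63B and CYFIP2 also lie above it in both.

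By the Euclidean distance of their log2 ratios to the control in the 2 overexpressing libraries, COPA and CDK13 were the closest of the 36 pairs of members, at 0.035, and COPA and COG3 the next, at 0.106. NEIL1 and AZIN1 were furthest apart, at 0.652. These distances rest on 2 ratios that share the control library.

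Other transcripts with recoding sites were compared as a list of 14 genes, of which 12 reached a mean of 1 CPM. Their median log2 ratios were -0.05 in ADAR2+SRSF9 against ADAR2, 0.02 in ADAR2 against control and -0.05 in ADAR2+SRSF9 against control. XKR6, a low-level transcript with 229, 425 and 453 reads, was the 1 called in the first of these, lower at a log2 ratio of -0.41. It was also called lower in ADAR2+SRSF9 against control (-0.30). GLI1, the Hedgehog pathway transcription factor, was called higher in ADAR2 against control (0.31). CCNI, which encodes cyclin I, was called lower (-0.29) and ZNF358, a zinc finger gene, higher (0.29) in ADAR2+SRSF9 against control. The rule called 13.9% of all genes in ADAR2+SRSF9 against ADAR2, 13.9% in ADAR2 against control and 26.5% in ADAR2+SRSF9 against control. Of 9 neuronal receptor and channel targets of editing, CACNA1D, a calcium channel subunit gene, alone reached a mean of 1 CPM, with 159, 174 and 188 reads, or 1.66 CPM in ADAR2+SRSF9 and 1.22 CPM in the control. It was called higher in ADAR2+SRSF9, at 1.28 times ADAR2 (1.03 to 1.60) and at a log2 ratio of 0.45 to the control. GRIA2, the glutamate receptor subunit with the classic ADAR2 recoding site, had 16, 6 and 6 reads.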

How the data were processed

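The deposited table gives raw read counts, as whole numbers, for 57268 genes. Trizol-purified total RNA went into NEBNext Ultra Directional libraries, per the labels' protocols. Per the submitters' processing notes, STAR, Picard, GATK and SAMtools and the build hg19 were used, with no roles given. Neither the counting program nor whether it used strand is stated in the sources used here. Columns were matched to samples by library code. TMM factors for library size came from edgeR 4.0.16 in R 4.3.3, at 0.979 in ADAR2+SRSF9, 1.01 in ADAR2 and 1.01 in the control. Ratios are of CPM. Before the log2 step, 0.5 counts were added, in proportion to library size. Other steps used Python 3.11.15, numpy 2.4.6, pandas 2.3.3, scipy 1.17.1, Biopython 1.88 and matplotlib 3.10.9. The ratios, intervals and calls were also run on counts simulated with counting (Poisson) error only, which is what the intervals assume. That run checks the code and cannot test the calls in these data, since it holds no other variation between libraries. Intervals cover counting error only, and where reads are PCR copies and not independent molecules they can be too narrow even for that.

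Lengths, overlaps, GC content and coding sequences came from GENCODE release 29, matched by identifier for 51801 genes. It is on GRCh38, so no coordinates are given. The GC trend was the median log2 ratio in 50 bins over 9594 protein-coding genes at 10 CPM or more, smoothed over 5 bins. Named genes are the members, the overexpressed genes and ADAR, list genes called at 1.2-fold or else the one furthest from 0, and NNAT. Relatives and overlapping genes named beside these were chosen after their values were seen. Members and lists were chosen with earlier results of these data known. A gene of these lists is not reported here. DESeq2 1.42.0 size factors and the other alternatives are reported in the closing section.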

Additional observations from a re-analysis of the deposited data

How the results depend on the processing

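With 1 library per group, no setting checks a ratio against replicates, and depth limits little here, since each member had 2860 reads or more. In ADAR2+SRSF9 against ADAR2 the count of members apart was 0. It was 1 with plain library totals (CDK13) and 2 at 1.1-fold, where 27.3% of all genes were called. In ADAR2 against control the count was 0, and 3 at 1.1-fold, where 40.8% of all genes were called. In ADAR2+SRSF9 against control the count was 1 (NEIL1). It was 0 with the GC trend removed, 0 at 1.5-fold and 7 at 1.1-fold. Of all genes, 3.99% were called at 1.5-fold and 50.7% at 1.1-fold in that comparison. Shares of all genes were not computed with library totals or with the GC trend removed. The members' median log2 ratio of 0.006 in ADAR2+SRSF9 against control was -0.039 with plain library totals. The sign of a member's log2 ratio changed in these cases: TMEM63B in ADAR2+SRSF9 against ADAR2 with DESeq2 size factors, library totals, reduced library sizes or the GC trend removed, CYFIP2 in ADAR2+SRSF9 against control with library totals or upper-quartile factors, and, with the GC trend removed, COG3 in ADAR2 against control and FLNA in ADAR2+SRSF9 against control. A prior count of 5 moved no member by more than 0.001. No paired analysis was possible because each group has 1 library.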
